A study of Mus musculus with 12 samples.

Results

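RNA from 1/4 of a mouse germinal vesicle (GV) oocyte was compared with RNA from whole GV oocytes, both amplified for 18 cycles. The libraries were taken by their labels, 2 for 1/4 and 2 for whole oocytes at 18 cycles, which makes 4 of the 12 libraries of the series. All were made from fully grown oocytes with an intact nuclear envelope, collected from a B6D2F1 female at 12 weeks of age, and no treatment or mutation separates the groups. According to the methods, lysates of 2 oocytes were diluted to give the samples of 1/2, 1/4 and 1/8, and the whole oocytes were other cells, so the fraction and the oocyte it came from cannot be told apart. The same volume of diluted ERCC mix, a set of synthetic RNAs of known sequence, was added to each sample after dilution, so that counts on genes can be read relative to a fixed amount. The cycle number of the whole oocytes is in their labels and that of the fractions is in the methods. The comparison asks how far the composition of the library is kept, and how the total is measured, when the input is a known part of a cell.

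A fully grown GV oocyte is arrested in prophase of the first meiotic division and has become nearly silent in transcription. It holds a large store of poly(A) RNA made during growth, which serves maturation, fertilization and the first divisions of the embryo. Among its most abundant products are those of the egg coat (zona pellucida), of the subcortical maternal complex beneath the egg membrane, and of the machinery that stores and later degrades maternal mRNA.

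Genes received 4027907 and 5049518 counts in the libraries of 1/4 and 3017069 and 1706478 in whole oocytes 1 and 2. At least 1 count was found on 17310 and 18092 genes in 1/4 and on 17017 and 14918 genes in the whole oocytes. The depth was therefore higher in both libraries of 1/4, and whole oocyte 2 was the shallowest of the 4. Between replicates, the chi-square per degree of freedom was 10.8 over 12068 genes in 1/4 and 17.3 over 10261 genes in whole oocytes. It takes every amplified read as an independent count, which PCR copies are not. It therefore cannot separate a difference between samples from an effect of amplification. Whole oocyte 2 bears on much of what follows: genes called lower in 1/4 had a median of 2.10 times as many normalized counts in whole oocyte 2 as in whole oocyte 1, against 1.06 times over the 7584 genes with a mean of at least 50 in the whole oocytes.

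The cell type of the labels was checked first. All 10 oocyte markers were detected in each of the 4 libraries, among them the coat proteins Zp1, Zp2 and Zp3 and the growth factors Gdf9 and Bmp15, which oocytes secrete to the surrounding follicle cells. Their summed level was 14850 and 16101 CPM, counts scaled to an equal library total, in 1/4 and 8278 and 6627 in whole oocytes. Markers of blood cells (4 of 4) had 0 counts in all 4 libraries, and those of stroma and theca had 4 of 6 at 0 and no more than 8 counts. Of the 12 markers of granulosa and cumulus cells, which surround the oocyte in the follicle, 8 passed the count filter, with a summed level of 59.3 and 60.2 CPM in 1/4 and 67.9 and 28.7 in whole oocytes. Their most abundant gene per length in 1/4 was Cyp19a1, with 90 and 118 counts in 1/4 and 18 and 13 in whole oocytes. Inha, a subunit of the granulosa hormone inhibin, had 52 counts in whole oocyte 1, 1 in whole oocyte 2 and 3 and 2 in 1/4. Foxl2, the transcription factor that defines granulosa cells, had 11 counts in whole oocyte 1 and 0 in the other 3 libraries, and Amhr2, the receptor of anti-Müllerian hormone, had 4 there and 0 in the others. The summed level was thus near equal in whole oocyte 1 and 1/4 and lowest in whole oocyte 2, with Inha, Foxl2 and Amhr2 highest in whole oocyte 1 and Cyp19a1 in 1/4. RNA of attached cells and of the oocyte cannot be told apart, and its part in the differences below was not tested. Of the 4 endothelial markers, 3 passed the filter and Cdh5 was at 0. The summed level was 30.0 and 33.3 CPM in 1/4 and 10.6 and 18.8 in whole oocytes, most of it from Pecam1. The median log2 fold change of the 3 was 0.87, which turned to -0.46 against whole oocytes at 10 cycles, where Pecam1 was at -1.09.

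The total amount of oocyte RNA was read as gene counts per ERCC count. It was 214 and 174 in 1/4, with Wilson 95% intervals from 211 to 217 and from 172 to 176, and 1873 and 1158 in whole oocytes, with intervals from 1784 to 1967 and from 1100 to 1218. These intervals cover counting error only. Both libraries of 1/4 lay below both whole oocytes, and the 2 whole oocytes lay further apart than their intervals. The mean of 194 ± 28.7 in 1/4 was 12.8% of the mean of 1515 ± 506 in whole oocytes (SD, n = 2 each), where dilution by 4 corresponds to 25%. Over the 4 pairs of one library of 1/4 and one whole oocyte the value ran from 9.27% to 18.5%, so it was under 25% in each. The exact permutation test, two-sided, gave p = 0.333, the smallest that 2 against 2 can give. The value depended on the reference. The ratio of 1/4 was 56.8% of that of whole oocytes at 10 cycles (323 and 360) and 26.4% of the mean of all 6 whole oocytes. Whole oocytes at 14 cycles had ratios of 347 and 354, so those at 18 cycles stood apart from all other whole oocytes. Against the samples of 1/2, which had ratios of 439 and 344, the ratio of 1/4 was 49.6%, near the 1/2 that the dilution sets. The ratio of 1/8 was 24.7% of that of 1/4, well under the 1/2 that the dilution sets there too.

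**Figure D1:**
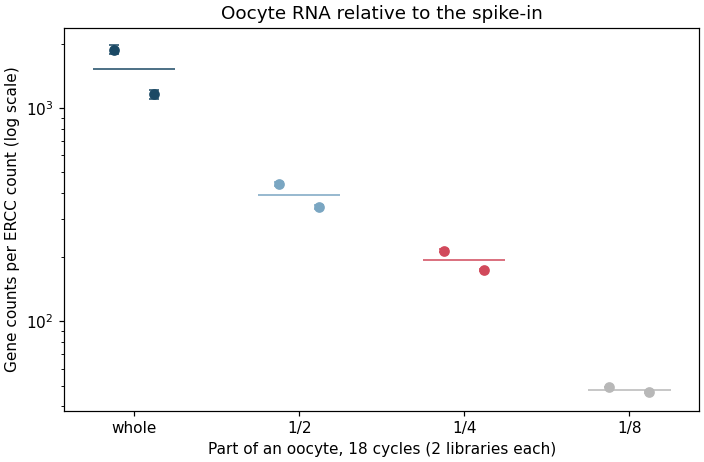
Gene counts per ERCC count (log scale) in the 8 libraries at 18 cycles, by part of an oocyte. Points are libraries with Wilson 95% intervals, which are smaller than the point in most fractions, and lines are means; 214 and 174 in 1/4 lie below 1158 and 1873 in whole oocytes.

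The spike-in itself was sampled more deeply in 1/4, with 18802 and 29075 ERCC counts against 1611 and 1474 in whole oocytes, a share of 0.465% and 0.573% against 0.0534% and 0.0863% of the counts on genes and ERCC. Of the 92 ERCC molecules, 47 and 48 had a count in 1/4 and 30 in each whole oocyte. All 4 libraries shared 26, while 10 molecules were found in both libraries of 1/4 and in neither whole oocyte and 0 the other way round. The 5 with the most counts, ERCC-00130, ERCC-00002, ERCC-00096, ERCC-00074 and ERCC-00113, took between 86.1% and 87.0% of the ERCC counts in every library. ERCC-00130 had 4716 and 7428 counts in 1/4 and 377 and 333 in whole oocytes, and its share of the ERCC counts was 25.1% and 25.5% in 1/4 and 23.4% and 22.6% in whole oocytes. ERCC-00002 made up 22.9% and 23.3% in 1/4 and 30.5% and 28.6% in whole oocytes. ERCC-00096 made up 22.7% and 18.4% in 1/4 and 19.1% and 17.7% in whole oocytes. ERCC-00074 made up 9.81% and 11.1% in 1/4 and 6.27% and 9.43% in whole oocytes, and ERCC-00113 made up 6.33% and 7.72% in 1/4 and 7.82% and 8.21% in whole oocytes. Each of the 5 had more counts in both libraries of 1/4 than in either whole oocyte. The 10 molecules with at least 10 counts in all 4 libraries had a share in 1/4 that was a median of 1.10 times that in whole oocytes. The 2 extremes, chosen after their values were seen, were ERCC-00108, with 0.925% and 0.609% in 1/4 and 1.61% and 1.15% in whole oocytes, and ERCC-00004, with 2.33% and 2.84% in 1/4 and 1.68% and 1.76% in whole oocytes.

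With size factors taken from the ERCC molecules, 10301 of the 14788 genes tested (69.7%) had a lower level in 1/4, with an adjusted p under 0.01 in edgeR's quasi-likelihood test. No gene was higher (0%), none was higher at an unadjusted p under 0.05, and DESeq2 called 9799 genes lower and 0 higher. The median log2 fold change was -2.69, with the middle 50% of genes between -3.20 and -2.14, where dilution by 4 corresponds to -2. Without whole oocyte 1 it was -2.11 and without whole oocyte 2 it was -3.04, so its distance from -2 depended on the whole oocyte used. Of the genes, 97.5% lay below 0 and 79.7% below -2. Taken library by library against the mean of the whole oocytes, the median was -2.55 and -2.88 in 1/4 and 0.34 and -0.39 in whole oocytes 1 and 2. The fall was therefore larger than the spread between replicates, and it was seen in both libraries of 1/4. It rested on the whole oocytes at 18 cycles as the reference. The other references hold whole oocytes with fewer cycles than 1/4, so input and cycle number cannot be told apart there. Against whole oocytes at 10 cycles the median was -0.75, with 902 genes lower and 144 higher, and against all 6 whole oocytes it was -1.90 with 0 genes lower and 0 higher, although 5801 had an unadjusted p under 0.05 in edgeR. On leaving out 1 library the number lower ran from 6703, without replicate 2 of 1/4, to 10592, without whole oocyte 2.

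**Figure D2:**
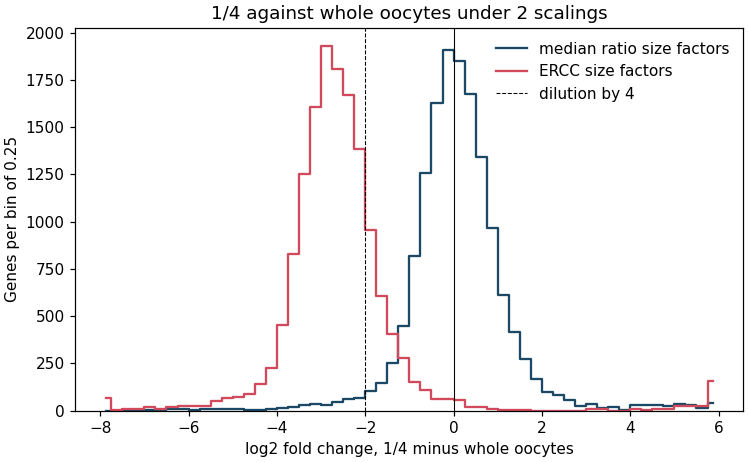
Number of genes per bin of 0.25 by log2 fold change of 1/4 against whole oocytes, with median ratio or ERCC size factors; the solid line marks 0, the dashed line the dilution by 4, and values outside the axis are counted in the outermost bins. The median lies at -2.69 with ERCC size factors and at 0.05 with the median ratio, over 14788 genes.

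The composition was compared with size factors from the median ratio over genes, which set the whole-transcriptome fall aside: the median log2 fold change was then 0.05, with the middle 50% of genes between -0.45 and 0.61. At the same threshold 63 genes fell in 1/4 (0.426% of those tested) and 5 rose (0.0338%). Of the 63, 57 are protein coding, and their log2 fold changes had a median of -2.56 and reached -4.60. An unadjusted p under 0.05 was found for 1253 genes lower and 1078 higher in 1/4, 15.8% of all, and the 2 groups did not overlap for 7273 genes (49.2%). DESeq2 called 171 lower and 70 higher (1.63% of all), 53 of the 63 and all 5 among them. Without whole oocyte 2, edgeR called 0 genes in either direction (1866 at an unadjusted p under 0.05), and with all 6 whole oocytes as the reference it also called 0 (1712 at that level). Without whole oocyte 1 it called 97 lower and 7 higher, against whole oocytes at 10 cycles 564 and 921, and with no filter 159 and 46. Without replicate 1 or 2 of 1/4 the genes lower were 13 and 17 and those higher 5 and 1, and with only the 4 libraries compared they were 10 and 0 (2579 at an unadjusted p under 0.05, edgeR). Leaving out 1 library leaves 1 in its group, so the spread behind those p-values comes from the other 3 groups at 18 cycles, 1/2 and 1/8 among them. For each of the 63 and the 5 genes the 2 groups did not overlap. Leaving out whole oocyte 2 could therefore hardly turn their direction, and it turned none. Against whole oocytes at 10 cycles 42 of the 63 kept their direction, with 2 called, and 2 of the 5, with 1 called. The number of calls thus depended on single libraries and on the reference. Of the 63 genes that fell, 49 had over 1.5 times as many normalized counts in whole oocyte 2 as in whole oocyte 1. The share was 17.0% over the 7584 genes with a mean of at least 50 in the whole oocytes.

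All positions are on GRCm38. Smarca5 (ENSMUSG00000031715, chromosome 8, 80698507 to 80739497), which encodes the ATPase of ISWI chromatin remodelling complexes, had 184 and 199 normalized counts in 1/4 and 1300 and 3565 in whole oocytes. Its log2 fold change was -3.66 (SE 0.42, adjusted p = 0.00018, edgeR) and -2.77 without whole oocyte 2 (adjusted p = 0.0115). Trim28 (ENSMUSG00000005566, chromosome 7, 12999114 to 13031035), the corepressor that KRAB zinc finger proteins recruit to keep imprints and retroelements methylated, had 402 and 442 in 1/4 and 1808 and 3801 in whole oocytes. Its log2 fold change was -2.73 (SE 0.36, adjusted p = 0.000255, edgeR) and -2.11 without whole oocyte 2 (adjusted p = 0.0134). In both genes the groups did not overlap, as for 49.2% of all genes. The whole oocytes differed from each other by more than the libraries of 1/4 did. The samples of 1/2 had 479 and 1012 normalized counts of Smarca5 and 485 and 919 of Trim28, which lie between the 2 groups. Those of 1/8 had 273 and 375 of Smarca5 and 407 and 456 of Trim28, above 1/4 for Smarca5 and level with it for Trim28, so neither gene fell further from 1/4 to 1/8. Neither passed against whole oocytes at 10 cycles, with -0.99 for Smarca5 (adjusted p = 0.0728, edgeR) and -0.94 for Trim28 (adjusted p = 0.0450).

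Dapk3 (chromosome 10, 81183005 to 81193197), a kinase that acts on myosin light chain, had 171 and 149 normalized counts in 1/4 and 941 and 2335 in whole oocytes, a log2 fold change of -3.35 (SE 0.42, adjusted p = 0.00018, edgeR). It was -2.57 without whole oocyte 2 (adjusted p = 0.0131, edgeR), and part of its exons overlaps 4930442H23Rik. Pdxp (chromosome 15, 78913919 to 78919517), a phosphatase of pyridoxal phosphate and of cofilin, had 142 and 214 in 1/4 and 1284 and 2333 in whole oocytes. Its log2 fold change was -3.34 (SE 0.41, adjusted p = 0.00018, edgeR) and -2.85 without whole oocyte 2 (adjusted p = 0.0126). Exons of Pdxp overlap those of Gm49510, which had 48.8 and 90.5 in 1/4 and 528 and 955 in whole oocytes, and how reads were divided between the 2 is uncertain. Abhd17b (chromosome 19, 21653185 to 21685637), a depalmitoylating enzyme of membrane proteins, had 127 and 161 in 1/4 and 557 and 3292 in whole oocytes. Its log2 fold change of -3.73 (SE 0.54) became -1.95 without whole oocyte 2, so that this library gave most of the difference between the means of 144 ± 24.1 and 1925 ± 1934 (SD, n = 2 each). None of these passed against whole oocytes at 10 cycles, with -0.11 for Dapk3, -1.33 for Abhd17b, 0.032 for Pdxp and 0.14 for Gm49510, so that the sign turned for the last 2.

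Oaf (chromosome 9, 43221235 to 43239911) had the largest fall among protein-coding genes past the threshold, with 9.04 and 12.1 normalized counts in 1/4 and 131 and 245 in whole oocytes. Its log2 fold change was -4.11 (SE 0.51, adjusted p = 0.00018, edgeR) and -3.62 without whole oocyte 2. Nudt4 (chromosome 10, 95547007 to 95564146), which hydrolyses diphosphoinositol polyphosphates, had 30.7 and 23.5 in 1/4 and 282 and 380 in whole oocytes, a log2 fold change of -3.61 (SE 0.52) that was -3.39 without whole oocyte 2 (adjusted p = 0.0278, edgeR). Rhobtb2 (chromosome 14, 69784990 to 69805636) had 54.2 and 113 in 1/4 and 446 and 1278 in whole oocytes, a log2 fold change of -3.34 (SE 0.51) that was -2.41 without whole oocyte 2. Oaf and Nudt4 differed between the groups by more than their replicates did, Nudt4 with the most even whole oocytes. For Rhobtb2 the group means were 83.7 in 1/4 and 862 in whole oocytes. Whole oocyte 2 had 2.86 times the normalized counts of whole oocyte 1 for this gene, against 2.74 times for Smarca5. The other 4 of the 12 named falls were of less studied transcripts that overlap a better known gene: Gm15672 (-4.60) overlaps Dnaaf5 and Prkar1b, Gm45872 (-3.67) lies within Smarca5, Gm9887 (-3.61) overlaps Arf6 and Gm43909 (-3.52) overlaps Bhlhe41. Their counts cannot be separated with confidence from those genes. Gm43909 was an exception to the excess in whole oocyte 2, with 11.7 and 9.38 in 1/4 and 123 and 119 in whole oocytes. Without whole oocyte 2 all 4 missed the threshold, with values between -3.55 and -2.79. Against whole oocytes at 10 cycles Nudt4 passed (-2.06, adjusted p = 0.0034, edgeR), while Oaf (-0.82), Rhobtb2 (-0.52), Gm15672 (-0.35), Gm45872 (-0.87) and Gm9887 (-0.066) did not, and Gm43909 turned to 0.13.

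The 5 genes that rose included Cd9 (ENSMUSG00000030342, chromosome 6, 125460266 to 125494791), the egg tetraspanin needed for fusion with sperm. It had 397 and 511 normalized counts in 1/4 and 109 and 83.1 in whole oocytes, a log2 fold change of 2.22 (SE 0.32, adjusted p = 0.000736, edgeR), and its exons overlap Gm26728. Otx1 (chromosome 11, 21994764 to 22002897), a homeobox transcription factor known from the forebrain, had 316 and 200 in 1/4 and 33.0 and 47.5 in whole oocytes, a log2 fold change of 2.71 (SE 0.44). Mocos (chromosome 18, 24653691 to 24701575), the sulfurase of the molybdenum cofactor, had 414 and 704 in 1/4 and 115 and 131 in whole oocytes, a log2 fold change of 2.19 (SE 0.34). All 3 were higher in both libraries of 1/4 than in either whole oocyte, which the rule for naming genes required. Amn1 (chromosome 6, 149157147 to 149188712) had 138 and 199 in 1/4 and 24.4 and 40.4 in whole oocytes, a log2 fold change of 2.44 (SE 0.40). Tex30 (chromosome 1, 44086613 to 44102441) had 661 and 919 in 1/4 and 246 and 221 in whole oocytes, a log2 fold change of 1.76 (SE 0.29), and its exons overlap Gm29247. With ERCC size factors the log2 fold changes of these 5 were between -1.03 and 0.04, so that their rise is one in composition. Against whole oocytes at 10 cycles, Otx1 was again higher in 1/4 (2.30, adjusted p = 0.000688, edgeR), while Cd9, Amn1 and Tex30 had values below 0. Each of the 5 missed the threshold without whole oocyte 2, with values between 1.68 for Tex30 and 2.96 for Otx1, and without replicate 2 of 1/4 only Otx1 passed, with Mocos at 1.76 (adjusted p = 0.0603, edgeR). Otx1 missed it without replicate 1 of 1/4 (2.34, adjusted p = 0.0316) and without whole oocyte 1 (2.43, adjusted p = 0.0366, edgeR), where only Cd9 passed, and with only the 4 libraries compared all 5 missed it.

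**Figure D3:**
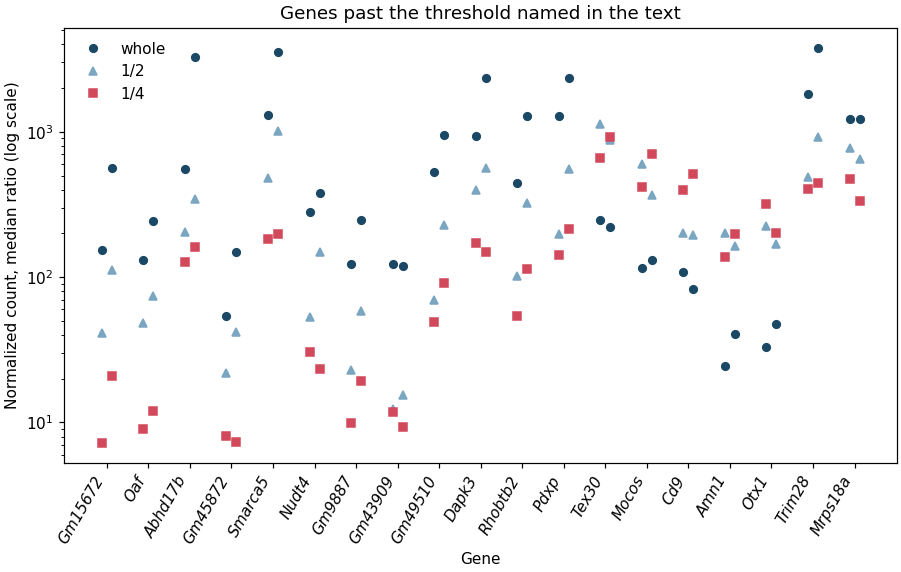
Normalized counts (log scale, median ratio) of the 19 named genes past the threshold in the 6 libraries of whole oocytes, 1/2 and 1/4, with replicate 1 to the left and replicate 2 to the right of each gene. For Smarca5 the whole oocytes reach 1300 and 3565 and the libraries of 1/4 reach 184 and 199.

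The transcripts with the highest level per length in 1/4 (TPM, counts divided by annotated exon length and scaled to an equal total) were known products of the maternal store and transcripts of a ribosomal RNA locus. Khdc3, a subunit of the subcortical maternal complex, had 30804 and 20552 TPM in 1/4 and 22244 and 12266 in whole oocytes. Gm20509, with 34092 and 22921 TPM in 1/4, shares exons with Khdc3, and the values of both are uncertain. Zbed3, another partner of that complex, had 17808 and 17404 TPM in 1/4 and 8945 and 16369 in whole oocytes. Whole oocyte 1 was thus well below the others for Zbed3, and the groups overlapped for Khdc3. Uchl1, a ubiquitin hydrolase whose exons overlap Uchl1os, had 8850 and 9114 TPM in 1/4 and 11161 and 5676 in whole oocytes. H1foo, the linker histone of the oocyte, had 6560 and 8581 TPM in 1/4 and 2355 and 3087 in whole oocytes. Its log2 fold change in normalized counts was 1.30 (SE 0.32, adjusted p = 0.0422, edgeR), which missed the threshold. Against whole oocytes at 10 cycles Khdc3 (2.85) and Zbed3 (1.43) were higher in 1/4, Uchl1 turned to 1.09, and H1foo was at 0.0098. The remaining 3 of the 8, AY036118, CT010467.1 and Gm42418, lie over one another at the ribosomal RNA locus on chromosome 17. CT010467.1 had 15518 and 14106 TPM in 1/4 and 4489 and 11910 in whole oocytes, so that these transcripts were lowest in whole oocyte 1.

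Gene lists by role were read by their counts and medians beside all genes tested, whose median log2 fold change was 0.05 with the median ratio. The 10 oocyte markers had a median of 0.84 and none lay below 0, but 0 passed the threshold in edgeR, where 7 had an unadjusted p under 0.05, and DESeq2 called 4. Over all genes tested, 46.9% lay below 0, 15.8% had an unadjusted p under 0.05 and DESeq2 called 1.63%. The median turned to -0.58 against whole oocytes at 10 cycles and was -1.94 with ERCC size factors. Zp3, a protein of the egg coat, had 8979 and 9419 normalized counts in 1/4 and 4821 and 3855 in whole oocytes. Ooep, a subunit of the subcortical maternal complex, had 5539 and 8516 in 1/4 and 2942 and 2767 in whole oocytes, a log2 fold change of 1.30 (SE 0.31, adjusted p = 0.0364, edgeR). Bmp15 had 3593 and 3627 in 1/4 and 3003 and 3454 in whole oocytes. Both libraries of 1/4 were higher for these 3 genes, by the least for Bmp15, but against whole oocytes at 10 cycles Bmp15 was lower in 1/4 (-1.82, adjusted p = 3.7e-05, edgeR), Ooep was at -0.22 and Zp3 at 0.38. The 7 genes of the subcortical maternal complex had a median of 0.88 (-0.22 against 10 cycles) and the 11 tested of 12 oocyte genes of the NLRP family a median of 0.70 (-1.40 against 10 cycles). In these lists edgeR called 0, with 5 and 6 at an unadjusted p under 0.05, and DESeq2 called 2 and 1. Nlrp14 had 7450 and 6753 in 1/4 and 3768 and 3349 in whole oocytes, with a log2 fold change of -1.13 against whole oocytes at 10 cycles (adjusted p = 0.00331, edgeR). The 13 tested of 16 transcription factors of the oocyte had a median of 0.29 (-0.69 against 10 cycles), with 0 called by edgeR or DESeq2 and 3 at an unadjusted p under 0.05, and Nobox, which drives oocyte genes during growth, had 881 and 901 in 1/4 and 590 and 568 in whole oocytes.

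Genes of the meiotic cell cycle were read in the same way. The 12 genes that hold prophase arrest through cAMP had a median of -0.29 (0.032 against 10 cycles) and the 17 of the CDK1 and cyclin B switch a median of 0.18 (-0.24 there). Gja4, the connexin that couples the oocyte to its follicle cells, had 6400 and 6883 normalized counts in 1/4 and 8451 and 8798 in whole oocytes. Mos, the kinase that maintains the later meiotic arrest, had 1586 and 2160 in 1/4 and 983 and 1437 in whole oocytes. Both missed the threshold, and against whole oocytes at 10 cycles both turned, to 0.56 for Gja4 and -1.14 for Mos. The 18 genes of the anaphase-promoting complex and its inhibitors had a median of -0.38, with 13 below 0, against 46.9% of all genes. The median became 0.22 against 10 cycles. Fbxo5, an inhibitor of that complex, had 790 and 890 in 1/4 and 1430 and 955 in whole oocytes. The 18 genes of the spindle and its checkpoint had a median of 0.30 (-0.34 against 10 cycles) and the 11 tested of 12 cohesin genes one of 0.04 (-0.58 there). Tacc3, a spindle protein whose exons overlap Tmem129, had 4920 and 4852 in 1/4 and 10124 and 7295 in whole oocytes, a log2 fold change of -0.83 (SE 0.28, adjusted p = 0.134, edgeR) that was 0.40 against 10 cycles. In each of these 5 lists edgeR and DESeq2 called 0 genes, with 3, 7, 6, 4 and 2 at an unadjusted p under 0.05 in edgeR, in the order given, against 15.8% of all genes.

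The stores of maternal mRNA were compared next. The 20 genes of maternal mRNA decay had a median of 0.03 (-0.48 against 10 cycles), the 15 of mRNA storage and translational repression one of 0.10 (-0.05 there) and the 12 of the RNA exosome one of -0.41 (0.42 there). In these lists edgeR and DESeq2 called 0 genes, with 2, 9 and 4 at an unadjusted p under 0.05 in edgeR, against 15.8% of all genes. Zar1, which binds stored mRNA, had 22767 and 18518 normalized counts in 1/4 and 19108 and 19459 in whole oocytes, and Btg4, the adaptor of the deadenylase, had 3410 and 2208 in 1/4 and 1556 and 3347 in whole oocytes. The groups overlapped for both genes, but against whole oocytes at 10 cycles Zar1 was higher in 1/4 (2.19, adjusted p = 1.3e-05, edgeR) and Btg4 was at -0.77. Cpeb1, which controls the poly(A) tail of stored mRNA, had 4245 and 3917 in 1/4 and 6485 and 6242 in whole oocytes, with a log2 fold change of 0.039 against 10 cycles (adjusted p = 0.937, edgeR). Lsm14b had 1931 and 1821 in 1/4 and 3147 and 10105 in whole oocytes, a log2 fold change of -1.82 (SE 0.40, adjusted p = 0.0229, edgeR), which was -0.75 without whole oocyte 2.

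Among the 10 genes of DNA methylation and its maternal protectors, Trim28 was the 1 called lower by edgeR (0.426% of all genes) and the median was 0.49 (-0.59 against 10 cycles). Of the 10, 5 had an unadjusted p under 0.05, as did 15.8% of all genes, and DESeq2 called 1, against 1.63% of all. Dnmt1, the maintenance methyltransferase, had 6774 and 5760 normalized counts in 1/4 and 3905 and 4200 in whole oocytes, and Dppa3, which protects the maternal genome from demethylation, had 1660 and 1695 in 1/4 and 939 and 1064 in whole oocytes. Both were higher in each library of 1/4 and missed the threshold, and against whole oocytes at 10 cycles Dppa3 was lower in 1/4 (-1.55, adjusted p = 0.000224, edgeR) and Dnmt1 was at -0.51. The 14 genes of the linker histone, histone variants and their chaperones had a median of 0.30, with 0 called by edgeR, 4 at an unadjusted p under 0.05 and 1 called by DESeq2. The 32 tested of 67 replication-dependent histones had a median of -0.08 (1.21 against 10 cycles), with 0 called by either tool and 3 at an unadjusted p under 0.05. The shares over all genes are those given for the first list.

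Housekeeping groups gave the largest lists. Of 87 cytoplasmic ribosomal proteins 82 were tested, with a median of -0.03 and 42 below 0, and of 83 nuclear genes of oxidative phosphorylation 80 were tested, with a median of 0.01 and 40 below 0. The 54 tested translation initiation factors had a median of 0.03 and the 36 tested proteasome subunits one of 0.18. In these 4 lists edgeR called 0 genes, with 24, 39, 17 and 16 at an unadjusted p under 0.05, and DESeq2 called 2, 9, 5 and 2, where 15.8% of all genes had such a p and DESeq2 called 1.63%. Against whole oocytes at 10 cycles the median was 0.51 for the ribosomal proteins, 0.46 for oxidative phosphorylation and -0.15 for the proteasome. All 78 mitochondrial ribosomal proteins were tested, with a median of -0.36, which turned to 0.58 against whole oocytes at 10 cycles, and 51 lay below 0, as did 46.9% of all genes. Of the 78, 37 had an unadjusted p under 0.05 and DESeq2 called 5. Of these, Mrps18a (chromosome 17, 46110986 to 46128910), a protein of the small subunit, had 472 and 332 normalized counts in 1/4 and 1229 and 1233 in whole oocytes. The log2 fold change of Mrps18a was -1.62 (SE 0.28, adjusted p = 0.00292, edgeR), while against whole oocytes at 10 cycles it was higher in 1/4 (1.57, adjusted p = 0.000228, edgeR). It missed the threshold on leaving out any 1 of the 4 libraries, with an adjusted p from 0.0106 to 0.243 in edgeR, and with only the 4 libraries (adjusted p = 0.0166, edgeR). Eif1b, an initiation factor whose exons overlap D830035M03Rik, had 3494 and 3082 in 1/4 and 6417 and 6836 in whole oocytes, a log2 fold change of -1.01 (SE 0.26, adjusted p = 0.0564, edgeR). Cox4i1, a subunit of cytochrome c oxidase whose exons overlap Emc8, had 3357 and 2876 in 1/4 and 6006 and 6430 in whole oocytes. For both genes the replicates lay close together and the groups apart, but the sign turned against whole oocytes at 10 cycles, to 1.09 for Eif1b (adjusted p = 0.00326, edgeR) and 0.74 for Cox4i1. The 7 tested of 13 mitochondrially encoded genes had a median of 0.50, which ran from -0.023 to 1.04 on leaving out 1 library and was -1.84 against 10 cycles, with 0 called by edgeR or DESeq2 and 0 at an unadjusted p under 0.05. Of these, mt-Co1 had 287 and 432 in 1/4 and 221 and 292 in whole oocytes.

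**Figure D4:**
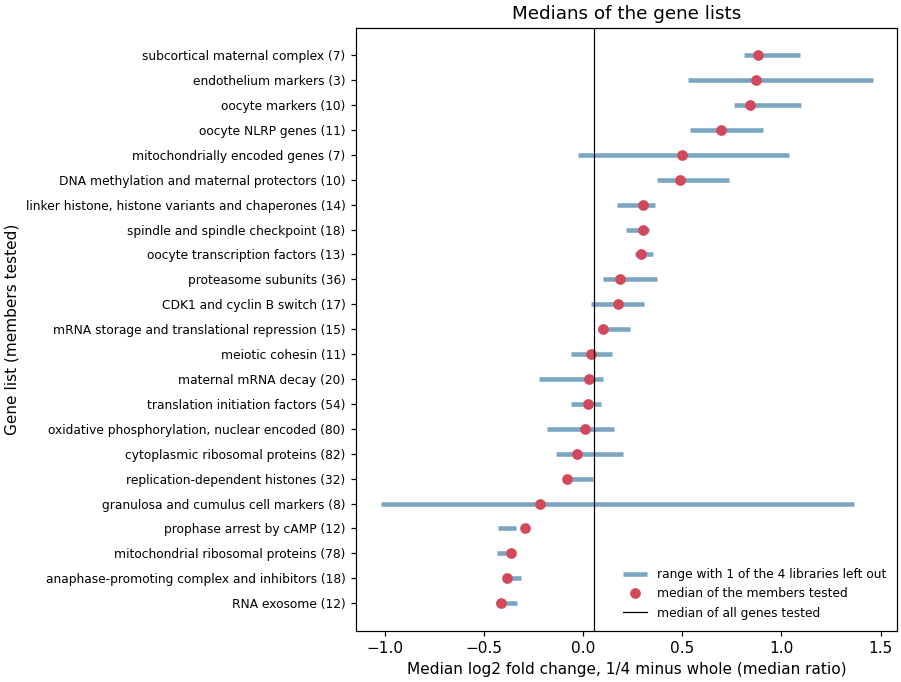
Median log2 fold change of 1/4 against whole oocytes (median ratio) over the tested members of each gene list with at least 3 of them (points), with the range of that median when 1 of the 4 libraries is left out (bars); the vertical line is the median of all genes tested, 0.05. Medians run from -0.41 for the RNA exosome, which is 0.42 against whole oocytes at 10 cycles, to 0.88 for the subcortical maternal complex, which is -0.22 there, and with ERCC size factors the medians of all these lists lie below 0.

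The number of genes detected was compared at an equal depth of 1706478 counts on genes. After binomial thinning to that depth, 15679 and 15979 genes had at least 1 count in 1/4 and 15852 and 14918 in whole oocytes, means of 15829 ± 212 and 15385 ± 660 (SD, n = 2 each). The groups overlapped, the difference of 444 genes had a two-sided p of 0.667 by exact permutation, and it became -23 without whole oocyte 2. With at least 5 counts the groups did not overlap, with 11533 and 11688 genes in 1/4 and 11378 and 10870 in whole oocytes (two-sided p = 0.333 by exact permutation, the smallest possible). The samples of 1/2 had 15230 and 15415 genes and those of 1/8 had 15611 and 15682, the last without thinning, from 1702062 counts. Before thinning, 12465 genes had a count in all 4 libraries. After this single random thinning, 5 genes had at least 5 counts in both whole oocytes and 0 in both libraries of 1/4, and 8 genes the reverse, none past the threshold. Before thinning, 4 of the 5 had counts in 1/4, such as Hoxd9 with 4 and 4. Of the 8, Gm39465 had 1 count in whole oocyte 1 before thinning. These 13, all chosen after their values were seen, were Syt13, Hoxd9, Cilp2, Bex4 and Rap2c in the whole oocytes and Anxa9, Ip6k3, Antxr1, Pitpnm3, Npnt, Rpl3, Gm39465 and AC132307.1 in 1/4. The highest count after thinning among the latter was 9, for Pitpnm3.

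Replicates of 1/4 lay closer to each other than whole oocytes did. Over 9794 genes at equal depth, the median absolute log2 ratio between the 2 libraries was 0.29 in 1/4 and 0.42 in whole oocytes, against 0.40 in 1/2 and 0.44 in 1/8. Differences of more than 1 on the log2 scale were seen for 7.37% of genes between the libraries of 1/4 and for 15.2% between the whole oocytes. The order was the same for genes with 10 to 100 counts (0.38 and 0.51), with 100 to 1000 (0.21 and 0.32) and for the 190 genes above 1000 (0.20 and 0.33). Between a library of 1/4 and a whole oocyte the median was between 0.49 and 0.55. Pearson's r of log10(CPM + 1) across genes, which are not independent replicates, was 0.987 within 1/4, 0.977 within whole oocytes and between 0.971 and 0.979 across the 2 groups. With 1 pair of libraries in each group, the difference in distance has no test. By the methods 2 oocytes gave all the diluted samples, and which gave which library is not stated. The 2 libraries of 1/4 may therefore come from 1 oocyte, while the whole oocytes are different cells.

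The log2 fold change was lower for genes rich in GC. Across 14776 genes its Spearman correlation with the GC content of the transcript was -0.175, with transcript length 0.0148, and with the level in whole oocytes at 10 cycles -0.0421 over 14788 genes. In 4 equal tiers of GC the median log2 fold change was 0.23, 0.12, 0.02 and -0.15 from the lowest to the highest, and 7, 13, 10 and 33 genes fell. The 63 genes that fell had a median GC content of 54.4%, against 49.4% over all genes, and a median transcript length of 2932 bases, against 3015. With ERCC size factors the medians of the same tiers were -2.51, -2.62, -2.72 and -2.90, so that the order was the same and all lay below 0. Exons of 26 of the 63 overlap another gene, against 41.2% of all genes tested. By biotype, 12344 protein-coding genes had a median of 0.03 and 670 lincRNAs one of 0.37.

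The other dilutions place 1/4 in the series. Against the samples of 1/2, edgeR called 0 of 14788 genes in either direction (0%), with 1842 at an unadjusted p under 0.05, and DESeq2 called 11 lower and 15 higher. Against 1/8, 228 genes were lower (1.54%) and 506 higher (3.42%) in 1/4. Khdc3, with 75869 and 46865 normalized counts in 1/4, was higher in 1/4 than in 1/8 by a log2 fold change of 2.54 (adjusted p = 0.000171, edgeR), where its value against whole oocytes was 0.45. Otx1 was higher by 1.81 (adjusted p = 0.00549, edgeR), where its value against whole oocytes was 2.71. These comparisons share the libraries of 1/4. According to the methods, the samples of 1/2, 1/4 and 1/8 came from 2 oocytes, so they share oocytes. Which library came from which oocyte is not stated. The values therefore stand side by side and are not independent.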

How the data were processed

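Poly(A) RNA of single oocytes or diluted lysates was sequenced. The files the authors deposited hold whole-number counts for each gene and ERCC molecule, without normalization, and the submitters' notes name cutadapt 2.5, STAR 2.7.2a, SAMtools 1.9 and HTSeq 0.9.1. Gene names, overlaps and coordinates come from GENCODE on GRCm38. The deposited counts list 0 reads with several positions, so how such reads were treated is not shown. Reads assigned to no feature, 7.82% and 7.43% in 1/4 and 7.07% and 10.1% in whole oocytes, were left out. Ambiguous reads, 4.41% and 3.98% in 1/4 and 4.10% and 3.89% in whole oocytes, were left out too. The methods state default parameters, which count by strand, for another HTSeq version than the notes name. For a library that does not mark strand that would leave about 1/2 of the reads without a feature, far above the shares given, so the setting behind these counts is uncertain and overlapping genes on opposite strands cannot be told apart. Depth ran from 1706478 to 5049518 counts on genes, and intervals cover counting error only: reads copied by PCR do not stand for separate molecules.

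Genes reaching 5 counts in 2 or more of the 8 libraries at 18 cycles were fitted with edgeR 4.0.16 in R 4.3.3 (quasi-likelihood test, Benjamini-Hochberg adjustment, threshold 0.01). Size factors came from the median ratio for composition and from the ERCC molecules for amount. DESeq2 1.42.0, other size factors, filters, references and leaving out each library were tried. Single values were tested by exact permutation in SciPy 1.17.1. Named genes were those past the threshold with a mean of at least 50 normalized counts and no overlap between groups, up to the 12 largest falls and 12 largest rises. Added to them were the 8 genes with the highest TPM in 1/4, list members past the threshold, the 3 most abundant members of each list, the cell type markers, any gene higher with ERCC size factors, and the 5 ERCC molecules with the most counts. Other names are given as chosen after their values were seen. Members and lists were chosen with earlier results of these data known. No label says that libraries with the same number share an oocyte, so p-values measure only the spread between these libraries, which may be technical.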

Additional observations from a re-analysis of the deposited data

How the results depend on the processing

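With the median ratio, 63 genes were lower and 5 higher in 1/4. DESeq2 gave 171 and 70, no filter 159 and 46, and only the 4 libraries compared 10 and 0 (2579 at an unadjusted p under 0.05 in edgeR). At least 10 counts in every library gave 8 higher. Whole oocytes at 10 cycles as the reference gave 564 and 921, and all 6 whole oocytes 0 and 0 (1712 at that level, edgeR). Leaving out 1 library gave from 0 to 97 lower and from 0 to 7 higher. TMM size factors gave 58 and 6. The cause was not tested.

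With ERCC size factors, 10301 genes were lower and the median was -2.69. Against 10 cycles 902 were lower and 144 higher with a median of -0.75, and against all 6 whole oocytes 0 and 0 (5801 at an unadjusted p under 0.05, edgeR) with -1.90. The median was -2.45 with no filter and -2.93 with only the 4 libraries. Leaving out 1 library gave from 6703 to 10592 lower, from 0 to 1 higher, and a median from -3.04 to -2.11. The cause was not tested.

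Gene counts per ERCC count in 1/4 were 10.4% to 16.8% of whole oocytes on leaving out 1 library. The difference in genes detected of 444 ran from -23 to 911 on leaving out 1 library and was 486.5 with at least 5 counts and 1733.5 without thinning. The difference in replicate distance of -0.13 was -0.16 without thinning, -0.11 for genes with at least 100 counts and -0.13 with TMM size factors.

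The fit with a replicate block called 105 genes lower and 21 higher. Deviations of same-numbered libraries, between the fraction compared and the whole oocytes, correlated at -0.0096 over 14788 genes and -0.081 over 9030. By the methods these groups came from different oocytes, so the correlations cannot show whether libraries share an oocyte. Pairing among the fractions was not tested. The numbers were not taken as paired, and the block result is given only here.

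Of 105 genes named, 19 passed the threshold. Of their 1243 values under alternatives, 125 had another sign with no call before or after and were counted as unchanged. Against 10 cycles the sign turned for Gm43909 (0.13), Gm49510 (0.14), Pdxp (0.032), Tex30 (-0.44), Cd9 (-0.30), Amn1 (-0.51), Mrps18a (1.57), Uchl1 (1.09), Bmp15 (-1.82), Padi6 (-1.11), Oosp1 (-2.03), Nlrp14 (-1.13), Nlrp4f (-1.65), Nlrp9b (-1.38), Cnot11 (1.44), Exosc4 (1.89), Exosc6 (2.79), Dppa3 (-1.55), H2afx (2.52), Rplp1 (1.13), Mrpl14 (1.27), Mrpl12 (1.49), mt-Cytb (-1.94), mt-Co1 (-1.84), mt-Nd1 (-1.66), Ndufa2 (1.16), Eif1b (1.09), Hist3h2ba (3.10) and Hist1h4h (2.01). With all 6 whole oocytes it turned for Cd9 (-0.16) and Amn1 (-0.17). Both references hold whole oocytes with fewer cycles than 1/4, so input and cycle number cannot be told apart there. The cause was not tested. Depth limits the values of genes with few counts, and whole oocyte 2 was the shallowest of the 4 libraries compared.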
